A study of Mus musculus with 4 samples.

Results

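The genes described here are those of the aminoacyl-tRNA synthetases, 20 genes for enzymes of the cytosol and 16 for enzymes of the mitochondrion, with 3 genes for non-catalytic factors of the cytosolic multisynthetase complex. They were chosen by name from a list of 40 names, in which Mars and Mars1 stand for the same gene, and all 39 genes were found among the 28443 genes of the count table. The samples were mRNA of bone marrow-derived macrophages (BMDMs), cultured from the marrow of 8-week mice and then kept for 1 day with RANKL at 50 ng/ml, the cytokine that starts osteoclast differentiation. The MYC-deficient cells came from MYC f/f LysM cre mice, labelled MYC cKO, and the MYC-WT cells from LysM cre mice, so that both genotypes carried the Cre recombinase, which is expressed from the lysozyme M locus of myeloid cells. There were 2 libraries of each genotype, called biological replicates by the submitters. Which exons of Myc are floxed is not stated, and the p-values measure only the spread between these libraries.

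An aminoacyl-tRNA synthetase joins an amino acid to its transfer RNA and thereby supplies the substrate of the ribosome. Cytosolic and mitochondrial ribosomes use separate sets of tRNAs, and both sets of enzymes are encoded in the nucleus. For most amino acids a second gene, whose name ends in 2, encodes the mitochondrial enzyme. Kars and Gars each serve both compartments, and Eprs encodes a fusion of the glutamate and proline enzymes. In the cytosol several enzymes are held together with Aimp1, Aimp2 and Eef1e1 in the multisynthetase complex. MYC is a transcription factor that binds DNA as a dimer with MAX, preferring the E-box CACGTG, and many genes of ribosome assembly and protein synthesis are among its known targets. ATF4, the transcription factor of the amino acid response, is a second known activator of many cytosolic synthetase genes.

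Myc itself had 633 and 667 counts in MYC-deficient libraries, against 7656 and 7284 counts in MYC-WT libraries. Library totals ranged between 27544806 and 35794698 counts. Levels are given here as CPM (counts in each 1000000 of the library total), and fold changes come from edgeR's quasi-likelihood test over 13436 genes with TMM scaling (trimmed mean of M values), MYC-deficient over MYC-WT. Calls of a gene needed an adjusted p under 0.05 together with a fold change over 1.5. Of 8 macrophage markers all were detected and 4 were higher in MYC-deficient cells (Adgre1, Csf1r, Cd68 and Itgam). Lyz2, the gene of lysozyme M, was low in all 4 libraries, with 9.44 and 11.2 CPM in MYC-deficient cells and 19.0 and 9.30 CPM in MYC-WT cells. Of 8 tested osteoclast markers 3 were lower in MYC-deficient cells (Nfatc1, Ocstamp and Oscar), and Calcr was at 0 in every library. In bulk RNA, fewer cells of a type and less RNA per cell cannot be told apart.

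Markers of other cell types also differed between the libraries. The summed level of 8 neutrophil markers was 278 and 99.3 CPM in MYC-deficient cells, against 102 and 44.6 CPM in MYC-WT cells, with Ly6g near 0 throughout and none of the 7 tested markers called. For 4 monocyte markers the sums were 246 and 136 CPM in MYC-deficient cells, against 49.9 and 24.2 CPM in MYC-WT cells. Of these Ccr2 held 147 and 106 CPM in MYC-deficient cells, against 17.0 and 11.7 CPM in MYC-WT cells. Ccr2 was called higher and the other 3 were not called. For 5 dendritic cell markers the sums were 126 and 293 CPM in MYC-deficient cells, against 26.0 and 66.2 CPM in MYC-WT cells. Nearly all of this came from Itgax, and Cd209a was called higher. The 4 B cell markers summed to between 1.44 and 5.73 CPM, and markers of T or NK cells, stromal cells and erythroid cells to less than 5 CPM in every library. None of 8 proliferation genes was called. The part of these cell types in the levels of the synthetase genes was not tested.

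The synthetase genes were lower in MYC-deficient cells across both compartments. Of the 39 genes, 27 were called lower (69.2%), none was called higher, and 12 did not pass, while among all genes tested 9.91% were called lower and 6.06% higher. The 27 called genes were between 1.52 and 2.20 times lower in MYC-deficient cells. The median log2 fold change of the 39 genes was -0.75, beside a median of -0.01 over all genes tested. In 38 of the 39 genes both MYC-deficient libraries lay below both MYC-WT libraries, an arrangement found in 35.9% of all genes tested, and Lars2 was the exception. By group, 14 of 20 cytosolic enzymes, 10 of 16 mitochondrial enzymes and 3 of 3 complex factors were called lower, with median log2 fold changes of -0.76, -0.65 and -1.05.

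The number of calls depended on single libraries, most of all on MYC-WT replicate 2. Without this library Farsb alone was still called (adjusted p = 0.0485) beside 1.41% of all genes tested called lower. Leaving out any other library also left fewer of the 39 genes called lower, and fewer of all genes tested as well. Of the 16 mitochondrial enzymes 10 were called with all libraries, and fewer when any library was left out. Their median log2 fold change then lay between -0.71 and -0.59. The log2 fold changes of the same 38 genes were negative with all libraries and under each of the 11 alternatives. This adds little to the separation of the libraries given above. A gene whose libraries separate by genotype keeps its direction when any of them is left out. In MYC-WT cells 31 of the 39 genes were higher in replicate 2 than in replicate 1, by a median ratio over the 39 genes of 1.12, and in MYC-deficient cells this was so for 24 genes, with a median ratio of 1.03.

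**Figure D1:**
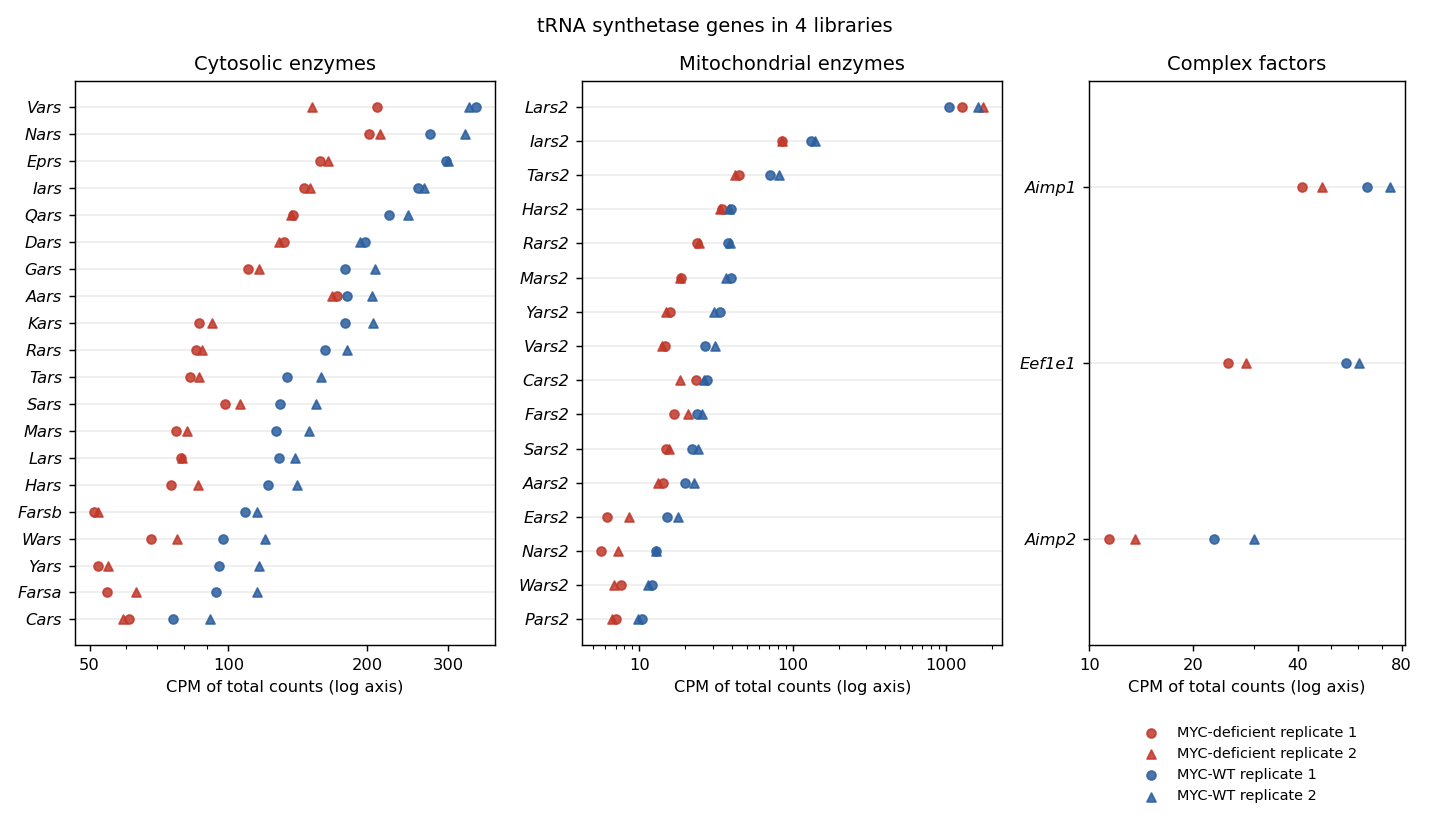
Level of each gene in each library, in CPM of total counts on a log axis, for cytosolic enzymes, mitochondrial enzymes and complex factors. Red points are MYC-deficient and blue points MYC-WT libraries (circles replicate 1, triangles replicate 2); in 38 of 39 genes both red points lie to the left of both blue points, and in Lars2 they do not.

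Promoters are shown for 4 cytosolic enzymes, which were all called lower. They hold the letters of the E-box or of an ATF4 element within 120 bases before the start and outside annotated untranslated regions. Aars, which holds both motifs and was not called, did not meet this rule and is not shown. Sequences are from RefSeq (GRCm38.p6), read 5′ to 3′ on the strand of the gene, with the motif in capitals. The Farsb stretch is chr1:78488898-78489017 (minus strand) and the Iars stretch chr13:49682010-49682099 (plus strand), both with an E-box in capitals. The Gars stretch is chr6:55037881-55038000 (plus strand) and the Tars stretch chr15:11399666-11399778 (minus strand), both with an ATF4 element in capitals, as the reverse complement of TGATGNAA.
Farsb: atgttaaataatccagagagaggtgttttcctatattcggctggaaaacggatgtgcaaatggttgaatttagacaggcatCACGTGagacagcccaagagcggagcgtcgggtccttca
Iars: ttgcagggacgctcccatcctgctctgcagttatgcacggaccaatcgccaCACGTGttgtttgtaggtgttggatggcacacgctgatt
Gars: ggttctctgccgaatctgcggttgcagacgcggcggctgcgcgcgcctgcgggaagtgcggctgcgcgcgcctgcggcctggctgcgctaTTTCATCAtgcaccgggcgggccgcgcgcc
Tars: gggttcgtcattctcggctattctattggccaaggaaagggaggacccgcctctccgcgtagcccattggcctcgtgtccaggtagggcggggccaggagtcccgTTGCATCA

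A promoter window of 250 bases before to 50 bases after the start was matched for 30 of the 39 genes, with 32 windows in all since Aars2 and Aimp1 have 2 each. CACGTG, which reads the same on both strands, was in 5 of these 32 windows (15.6%), those of Aars, Farsb, Iars, Tars and Ears2, and in 7.15% of all 32851 promoter windows. TGATGNAA on either strand was also in 5 of the 32 windows (15.6%), those of Aars, Gars, Iars, Tars and Yars, against 3.97% of all windows. In the 3 genes with both motifs the matches did not overlap. Among the 5 genes with CACGTG 4 were called lower, with a median log2 fold change of -0.80, and among the 25 genes without it 19 were called lower, with a median of -0.75. The 5 genes with TGATGNAA had 4 called lower and a median of -0.77, and the 25 genes without it 19 called lower and a median of -0.78. Aars, which holds both motifs, had a log2 fold change of -0.16 and was not called. A match of letters is a description of the window and not a bound site.

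Among the cytosolic enzymes the lowest fold changes were those of Farsb, Kars, Yars and Rars. Farsb (ENSMUSG00000026245; mm10 chromosome 1, 78417975 to 78488897, minus strand), the beta subunit of the phenylalanine enzyme, had 51.1 and 52.2 CPM in MYC-deficient cells, against 109 and 115 CPM in MYC-WT cells (log2 fold change -1.09, SE 0.10, adjusted p = 0.00809). Farsa, the alpha subunit of the same enzyme, had 54.5 and 63.1 CPM in MYC-deficient cells, against 94.2 and 116 CPM in MYC-WT cells (-0.81, SE 0.16, adjusted p = 0.0277). Both subunits were thus lower, and in each of them the 4 libraries separated by genotype. Yars, the tyrosine enzyme, had 52.2 and 54.8 CPM in MYC-deficient cells, against 95.3 and 117 CPM in MYC-WT cells (-0.96, SE 0.14, adjusted p = 0.0159).

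Of the 8 enzymes of the multisynthetase complex 7 were called lower, with a median log2 fold change of -0.79. Kars, the lysine enzyme, had 86.5 and 92.2 CPM in MYC-deficient cells, against 179 and 206 CPM in MYC-WT cells (-1.08, SE 0.13, adjusted p = 0.0106). Rars, the arginine enzyme, had 85.01 and 87.6 CPM in MYC-deficient cells, against 162 and 181 CPM in MYC-WT cells (-0.96, SE 0.11, adjusted p = 0.0109). Eprs, which charges the tRNAs of glutamate and proline, had 158 and 164 CPM in MYC-deficient cells, against 297 and 299.9 CPM in MYC-WT cells (-0.86, SE 0.10, adjusted p = 0.0110). In these 3 genes the gap between genotypes was much wider than the gap within either. Iars, Mars, Qars and Lars, the enzymes of isoleucine, methionine, glutamine and leucine, had log2 fold changes between -0.80 and -0.73. Dars, the aspartate enzyme, was the member of the complex that was not called. It had 132 and 129 CPM in MYC-deficient cells, against 198 and 193 CPM in MYC-WT cells, and its log2 fold change of -0.56 (SE 0.10, adjusted p = 0.0207) missed only the fold threshold. Summed over the 8 enzymes, the level was 901 and 921 CPM in MYC-deficient cells, against 1574 and 1681 CPM in MYC-WT cells.

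The 3 non-catalytic factors of the complex were all called lower. Eef1e1 had 25.1 and 28.4 CPM in MYC-deficient cells, against 55.3 and 60.3 CPM in MYC-WT cells (-1.09, SE 0.13, adjusted p = 0.0108). Aimp2, a scaffold of the complex, had 11.4 and 13.6 CPM in MYC-deficient cells, against 22.9 and 29.9 CPM in MYC-WT cells (-1.05, SE 0.20, adjusted p = 0.0249). Aimp1, which also binds tRNA, had 41.2 and 47.2 CPM in MYC-deficient cells, against 63.3 and 74.3 CPM in MYC-WT cells (-0.61, SE 0.15, adjusted p = 0.0430). The Aimp1 change lay close to both thresholds, and it was not called with RLE scaling (relative log expression; adjusted p = 0.0575) or by DESeq2, where its log2 fold change of -0.58 missed the fold threshold.

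Of the 12 cytosolic enzymes outside the complex 7 were called lower, with a median log2 fold change of -0.71. Vars, the valine enzyme, had 210.4 and 152 CPM in MYC-deficient cells, against 345 and 332 CPM in MYC-WT cells (-0.88, SE 0.17, adjusted p = 0.0276). Its MYC-deficient replicates were the least alike of the 20 enzymes, with replicate 2 at 0.722 times replicate 1. Gars, the glycine enzyme, had 110 and 116 CPM in MYC-deficient cells, against 179 and 208 CPM in MYC-WT cells (-0.75, SE 0.13, adjusted p = 0.0202). Tars and Hars, the threonine and histidine enzymes, were also called lower (log2 fold changes -0.77 and -0.68).

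The enzymes that were not called differed in how far they stood from the thresholds. Aars, the alanine enzyme, had 172 and 168 CPM in MYC-deficient cells, against 181 and 205 CPM in MYC-WT cells (-0.16, SE 0.12, adjusted p = 0.383). This was the smallest difference of the 20, and its range over the alternatives was -0.27 to -0.04. Nars, the asparagine enzyme, had 202 and 214 CPM in MYC-deficient cells, against 273 and 327 CPM in MYC-WT cells (-0.50, SE 0.14, adjusted p = 0.0611). Sars, Cars and Wars, the serine, cysteine and tryptophan enzymes, had log2 fold changes of -0.45, -0.45 and -0.56 with adjusted p between 0.0618 and 0.0758. In each of these 5 genes both MYC-deficient libraries were below both MYC-WT libraries.

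**Figure D2:**
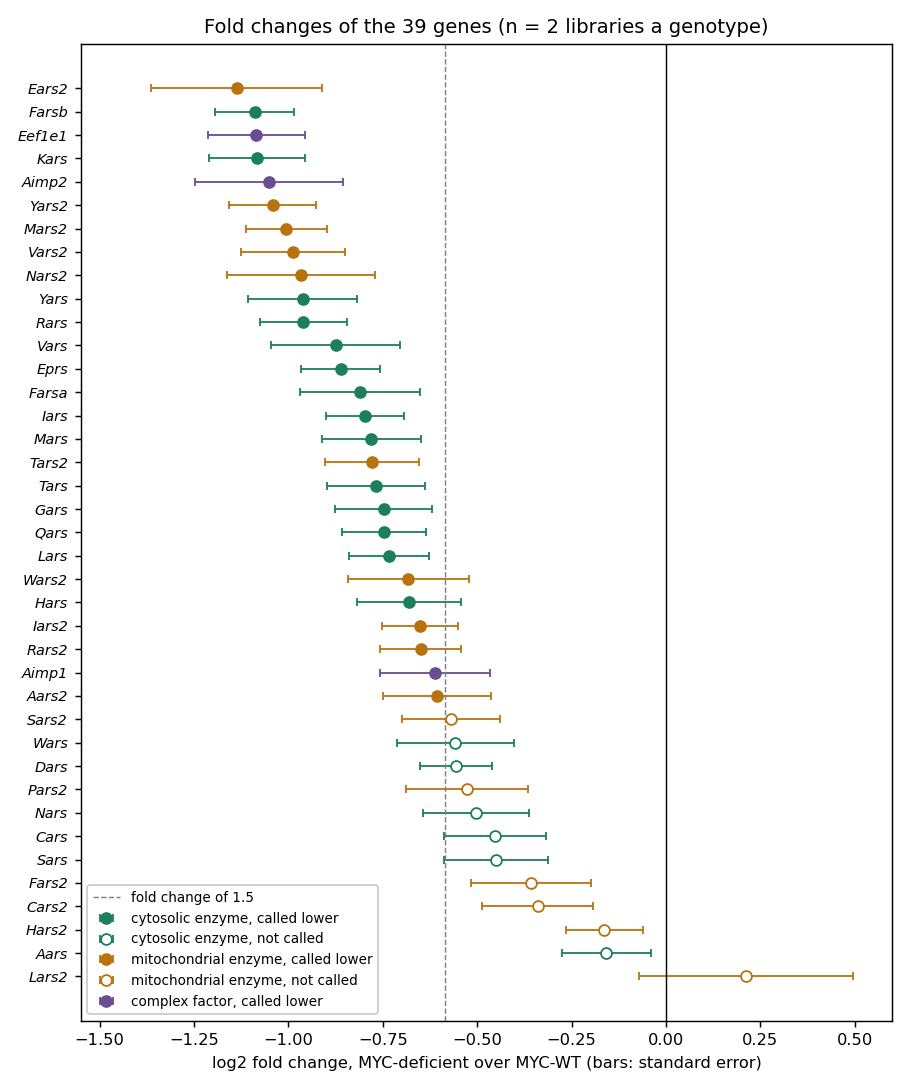
Log2 fold change of each of the 39 genes, MYC-deficient over MYC-WT, with bars for the standard error; colours give the group and filled points the genes called lower. Values run from -1.14 (Ears2) to 0.21 (Lars2), and every gene but Lars2 is below 0.

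The synthetases fall into a pair of structural classes with unrelated catalytic folds, and both classes held called genes. Of 9 class I cytosolic genes 7 were called lower (median log2 fold change -0.78), and of 10 class II genes 6 were (median -0.71). The class II genes include Farsa and Farsb, the subunits of the same phenylalanine enzyme. Eprs, which holds 1 enzyme of each class, was counted in neither. Of 12 cytosolic enzymes listed as known ATF4-linked genes 7 were called lower (median -0.74), and of the other 8 enzymes 7 were (median -0.84). Atf4 itself had 163 and 169 CPM in MYC-deficient cells, against 172 and 202 CPM in MYC-WT cells (-0.14, SE 0.13, adjusted p = 0.488). Ddit3, a target of ATF4 in stress, had 8.66 and 6.17 CPM in MYC-deficient cells, against 6.11 and 9.19 CPM in MYC-WT cells (-0.02, SE 0.29, adjusted p = 0.971), with overlapping libraries. Of 9 ATF4 pathway genes (median log2 fold change -0.06) 1 was called lower (11.1%), a share near the 9.91% of all genes tested. This gene was Asns, asparagine synthetase, with 10.9 and 16.2 CPM in MYC-deficient cells, against 31.3 and 52.8 CPM in MYC-WT cells (-1.61, SE 0.33, adjusted p = 0.0302).

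Of the 16 mitochondrial enzymes 10 were called lower. Ears2 (ENSMUSG00000030871; mm10 chromosome 7, 122037213 to 122067263, minus strand), the mitochondrial glutamate enzyme, had the lowest log2 fold change of all 39 genes, with 6.17 and 8.53 CPM in MYC-deficient cells, against 15.04 and 17.9 CPM in MYC-WT cells (-1.14, SE 0.23, adjusted p = 0.0289). Yars2, the mitochondrial tyrosine enzyme, had 15.8 and 14.9 CPM in MYC-deficient cells, against 33.6 and 30.8 CPM in MYC-WT cells (-1.04, SE 0.12, adjusted p = 0.00993). Mars2, the mitochondrial methionine enzyme, had 18.8 and 18.4 CPM in MYC-deficient cells, against 39.5 and 36.7 CPM in MYC-WT cells (-1.01, SE 0.11, adjusted p = 0.00934). In each of these 3 genes both MYC-deficient libraries were below both MYC-WT libraries, and Ears2 had the widest spread between replicates. Vars2, for valine, had 14.6 and 14.1 CPM in MYC-deficient cells, against 27.0 and 31.1 CPM in MYC-WT cells (-0.99, SE 0.14, adjusted p = 0.0137). Nars2, for asparagine, had 5.64 and 7.30 CPM in MYC-deficient cells, against 12.8 and 12.9 CPM in MYC-WT cells (-0.97, SE 0.20, adjusted p = 0.0302).

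Iars2, for isoleucine, had 85.3 and 84.7 CPM in MYC-deficient cells, against 132 and 140.3 CPM in MYC-WT cells (-0.65, SE 0.10, adjusted p = 0.0169). Tars2, for threonine, had 44.7 and 42.2 CPM in MYC-deficient cells, against 70.7 and 81.1 CPM in MYC-WT cells (-0.78, SE 0.12, adjusted p = 0.0175). Rars2, Wars2 and Aars2, for arginine, tryptophan and alanine, were called with log2 fold changes of -0.65, -0.68 and -0.61. Aars2 was not called with RLE scaling (adjusted p = 0.0513) or by DESeq2. The calls of Rars2, Wars2 and Aars2 were not kept without MYC-deficient replicate 1 or without either MYC-WT library. Sars2, for serine, was not called, with 14.9 and 15.5 CPM in MYC-deficient cells, against 22.1 and 23.98 CPM in MYC-WT cells and a log2 fold change of -0.57 (SE 0.13, adjusted p = 0.0386) that missed the fold threshold.

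Apart from Lars2, the mitochondrial enzymes with the smallest differences were those of histidine, cysteine and phenylalanine. Hars2 had 34.8 and 33.8 CPM in MYC-deficient cells, against 39.8 and 38.4 CPM in MYC-WT cells (-0.16, SE 0.10, adjusted p = 0.302). Cars2 and Fars2 had log2 fold changes of -0.34 (adjusted p = 0.166) and -0.36 (adjusted p = 0.174), and Pars2, for proline, -0.53 (adjusted p = 0.0782). Hars2 and Hars lie side by side on opposite strands with overlapping annotated exons, and no source used here gives the strand setting of the counting, so reads from the overlap could not be assigned to either gene. The same holds for Mars and Ddit3. In all, 15 of the 39 genes share annotated exon bases with another gene, 10 of them called lower (median log2 fold change -0.68), beside 17 of the 24 genes with no such overlap (median -0.75).

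Lars2 (ENSMUSG00000035202; mm10 chromosome 9, 123366927 to 123462666, plus strand), the mitochondrial leucine enzyme, stood apart in level and in pattern. It had 1279 and 1747 CPM in MYC-deficient cells, against 1039 and 1620 CPM in MYC-WT cells (0.21, SE 0.28, adjusted p = 0.635). The genotypes overlapped, and in both of them replicate 2 was above replicate 1. It held 79.3% and 84.1% of the summed CPM of the 16 mitochondrial enzyme genes in MYC-deficient libraries, against 66.5% and 74.7% in MYC-WT libraries. Consequently the summed mitochondrial level, 1613 and 2077 CPM in MYC-deficient cells against 1563 and 2169 CPM in MYC-WT cells, mostly followed Lars2. Without Lars2 the other 15 genes summed to 334 and 330 CPM in MYC-deficient cells, against 524 and 548 CPM in MYC-WT cells, a 1.62-fold lower level in MYC-deficient cells.

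Parts of the Lars2 transcript are nearly identical to other genes. Bases 3278 to 3349 of the main Lars2 transcript (3894 bases, GENCODE M21), in its 3′ untranslated region, matched the noncoding gene Gm15564 of another chromosome at 98.6% identity over 72 bases. Bases 3163 to 3212 matched AA474408, an unclassified gene model of another chromosome, at 96.0% over 50 bases, and it was counted at 0.419 and 0.617 CPM in MYC-deficient cells, against 0.662 and 0.480 CPM in MYC-WT cells. Gm15564 had 4.72 and 12.0 CPM in MYC-deficient cells, against 2.98 and 13.2 CPM in MYC-WT cells, with replicate 2 above replicate 1 in both genotypes as in Lars2. How many Lars2 reads fell on either stretch was not tested, since the counts are per gene.

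**Figure D3:**
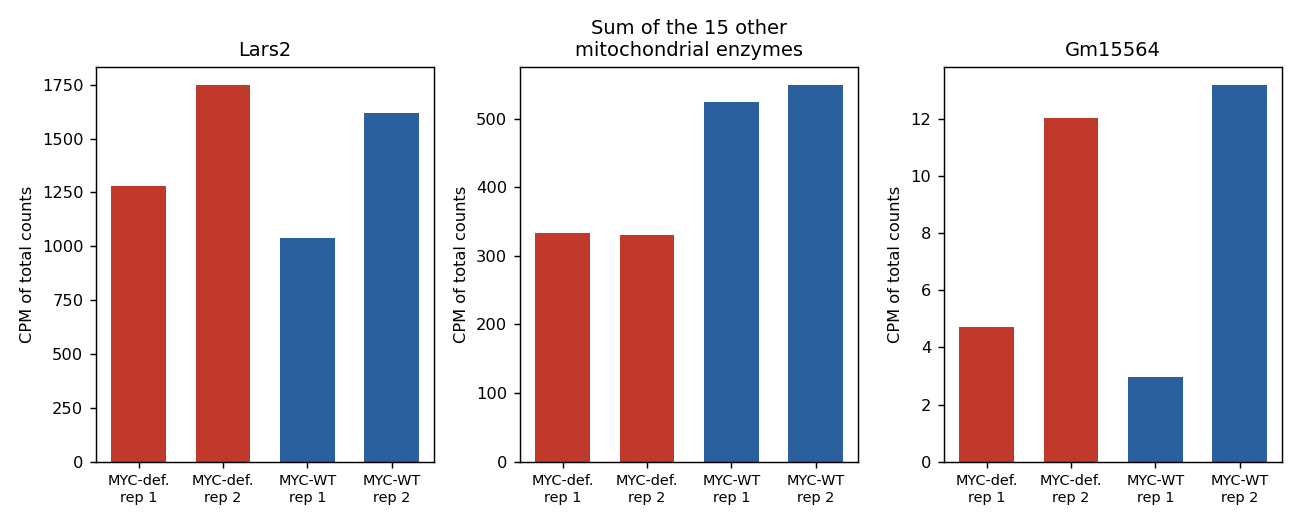
CPM of total counts in each library for Lars2, for the sum of the other 15 mitochondrial enzyme genes and for Gm15564; each panel has its own axis from 0, and each bar is 1 library (red MYC-deficient, blue MYC-WT). Lars2 and Gm15564 are higher in replicate 2 of both genotypes, whereas the sum of the other 15 is lower in both MYC-deficient libraries than in both MYC-WT libraries.

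For the cytosolic enzymes the summed level was 2138 and 2155 CPM in MYC-deficient cells, against 3409 and 3767 CPM in MYC-WT cells, or 0.214% and 0.216% of all counts in MYC-deficient libraries against 0.341% and 0.377% in MYC-WT libraries. The ratio of the means was 1.67-fold lower in MYC-deficient cells, close in size to the 1.62-fold of the mitochondrial enzymes without Lars2. The 3 complex factors summed to 77.8 and 89.1 CPM in MYC-deficient cells, against 142 and 164 CPM in MYC-WT cells, 1.83-fold lower in MYC-deficient cells. These differences between the groups of genes were not tested.

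Levels of different genes were compared per kilobase of the longest protein-coding transcript (CPM per kb, GENCODE M21). On this scale the 20 cytosolic enzymes had a median of 32.5 in MYC-deficient cells and 58.3 in MYC-WT cells, and the 15 mitochondrial enzymes other than Lars2 a median of 5.46 in MYC-deficient cells and 11.5 in MYC-WT cells. Nars was the highest cytosolic gene per kb, at 75.7 in MYC-deficient cells and 109 in MYC-WT cells. Iars2 was the highest of the 15 mitochondrial genes, at 15.5 in MYC-deficient cells and 24.9 in MYC-WT cells, and Wars2 the lowest, at 1.62 in MYC-deficient cells and 2.66 in MYC-WT cells. Thus the cytosolic genes had the higher levels in both genotypes. Lars2, at 389 CPM per kb in MYC-deficient cells and 342 in MYC-WT cells, was above every other one of the 39 genes.

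For 16 pairs of genes, the cytosolic and the mitochondrial enzyme of the same amino acid could be compared within each library, with Eprs entering the pairs of glutamate and proline. The cytosolic log2 fold change was the lower one in 7 pairs and the mitochondrial one in 9, and the median difference was 0.05. This order was not stable, since the cytosolic value was the lower one in 10 of the 16 pairs without MYC-deficient replicate 2 and likewise without MYC-WT replicate 1. In 8 pairs the difference was under 0.25, and in 7 pairs both genes were called lower. The ratio of cytosolic to mitochondrial counts was lower in both MYC-deficient libraries than in both MYC-WT libraries in 6 pairs, higher in both in 4 pairs and overlapping in 6. No common direction was thus seen over the pairs, and the differences within pairs carry no test.

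The pair of leucine differed most between compartments in log2 fold change. This difference rests on Lars2, whose log2 fold change ranged from -0.09 to 0.60 over the alternatives. How far shared sequence entered the Lars2 counts was not tested. The count of Lars over that of Lars2 was 0.0618 and 0.0455 in MYC-deficient libraries, against 0.124 and 0.0862 in MYC-WT libraries, with Lars called lower (-0.73) and Lars2 not called. For histidine the ratio of Hars over Hars2 was 2.16 and 2.54 in MYC-deficient libraries, against 3.06 and 3.67 in MYC-WT libraries. For phenylalanine the ratio of Farsa over Fars2 was 3.24 and 3.03 in MYC-deficient libraries, against 3.98 and 4.53 in MYC-WT libraries. In these 3 pairs the cytosolic gene had the more negative log2 fold change, and in alanine and asparagine the mitochondrial gene had it. The ratio of Aars over Aars2 was 12.1 and 12.7 in MYC-deficient libraries, against 9.16 and 9.03 in MYC-WT libraries, and that of Nars over Nars2 was 35.8 and 29.3 in MYC-deficient libraries, against 21.3 and 25.3 in MYC-WT libraries. Threonine and tyrosine were among the pairs in which both genes had nearly the same change, at -0.77 and -0.78 for Tars and Tars2 and at -0.96 and -1.04 for Yars and Yars2.

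**Figure D4:**
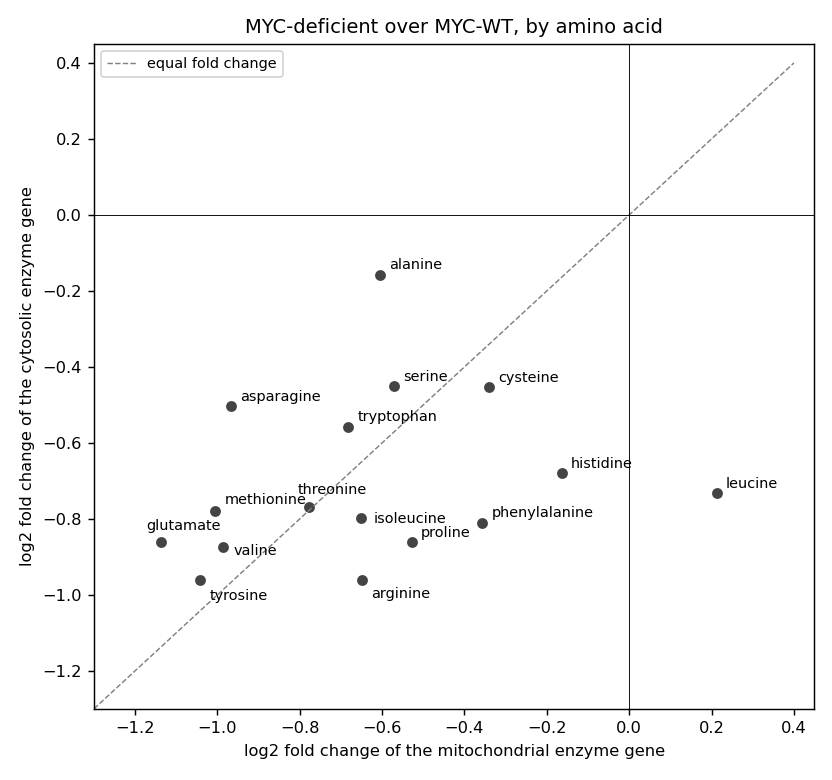
Log2 fold change (MYC-deficient over MYC-WT) of the cytosolic enzyme gene against that of the mitochondrial enzyme gene, 1 point for each of 16 amino acids, with a dashed line where both are equal. Of the 16 points 9 lie above the line and 7 below it, leucine farthest of all.

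Other genes that handle tRNA were listed in 6 groups. Of the 27 members described here 10 were called lower (37.0%) and none higher, with a median log2 fold change of -0.51. Among all genes tested 9.91% were called lower and 6.06% higher. All 4 genes of tRNA export and delivery were called lower. Xpot, the nuclear exporter of tRNA, had 108 and 119 CPM in MYC-deficient cells, against 205 and 203 CPM in MYC-WT cells (-0.82, SE 0.11, adjusted p = 0.0130). Tufm, which brings charged tRNA to the mitochondrial ribosome, had 38.3 and 44.5 CPM in MYC-deficient cells, against 84.4 and 100.4 CPM in MYC-WT cells (-1.13, SE 0.15, adjusted p = 0.0132). Its exchange factor Tsfm and the cytosolic counterpart Eef1a1 had log2 fold changes of -1.004 and -0.83. With all libraries kept, the delivery factors of both compartments were thus lower along with the enzymes that charge the tRNAs. The Eef1a1 call was not kept without MYC-deficient replicate 1 or without either MYC-WT library. Its log2 fold changes then lay between -0.90 and -0.73. The Xpot call was not kept without MYC-WT replicate 2, where its log2 fold change was -0.81.

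Among the remaining groups, which are small, fewer genes were called, beside 9.91% called lower over all genes tested. Tarsl2, a second cytosolic threonine enzyme, was not called (-0.36, adjusted p = 0.116). In the indirect route to mitochondrial glutamine tRNA, Gatb was the only one called lower of the 3 subunits of the amidotransferase (-0.64, adjusted p = 0.0337). The Gatb call likewise depended on single libraries. Of 7 genes of tRNA proofreading and recycling 2 were called lower. Dtd1, which removes D-amino acids from tRNA, had 3.52 and 4.28 CPM in MYC-deficient cells, against 11.9 and 13.7 CPM in MYC-WT cells (-1.69, SE 0.21, adjusted p = 0.0113), a more negative value than that of any of the 39 genes, and Ptrh2 had a log2 fold change of -0.65. None of 3 selenocysteine genes and 3 of 8 genes of tRNA end and intron processing (Elac2, Tsen54 and Rtcb) were called lower.

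**Figure D5:**
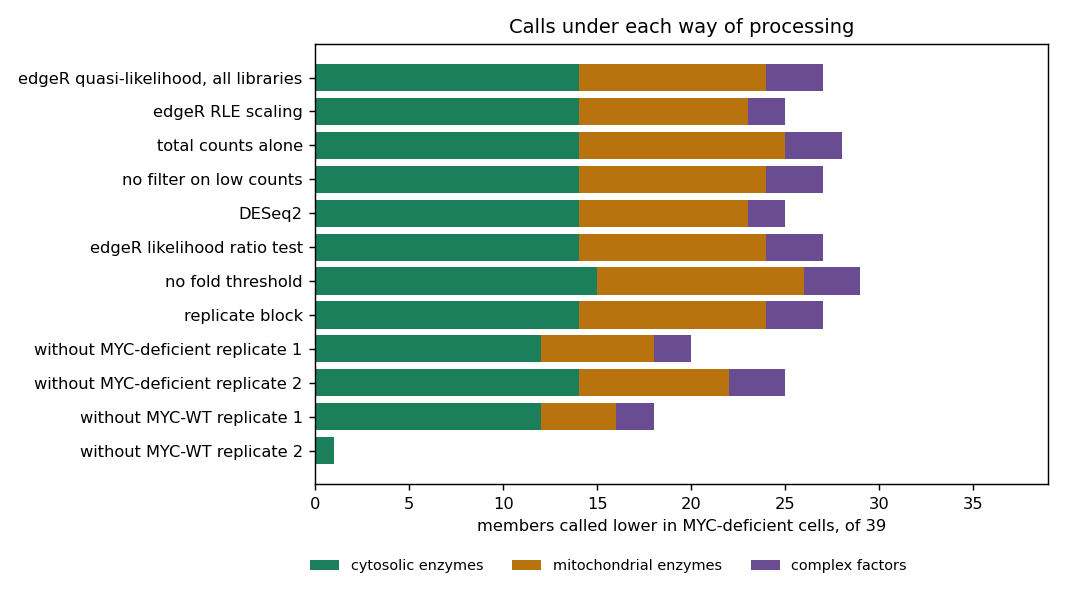
Number of the 39 genes called lower in MYC-deficient cells under the reported analysis (top bar) and each of 11 alternatives, split into cytosolic enzymes, mitochondrial enzymes and complex factors. Over all genes tested, which are not drawn, fewer were likewise called lower when any library was left out. The number is between 25 and 29 under the 7 alternatives that keep all libraries, between 18 and 25 without any library other than MYC-WT replicate 2, and 1 without that library.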

How the data were processed

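Per the labels, the authors made the deposited gene counts on the mm10 build, and the tools in the submitters' processing notes are STAR 2.7.3a, edgeR, bcl2fastq 1.8.4 and fastp; no source used here gives the counting tool, its strand setting or the annotation. The deposited counts are raw whole numbers; a shorter table holds the same counts for 11109 genes, all 39 among them, and a log2 CPM table was not used. Genes were filtered with filterByExpr of edgeR 4.0.16 (R 4.3.3; at least 10 counts, 15 in total), and genotype was tested with edgeR's quasi-likelihood test, with Benjamini-Hochberg adjustment over 13436 genes. The code was tested on simulated data. Standard errors (SE) are the log2 fold change over the square root of F. Replicates differed by more than sampling noise (chi-square per gene 54.0 between MYC-deficient and 31.8 between MYC-WT libraries). The positions of 36 of the 39 genes are identical in GENCODE M21. Transcripts were matched with blastn 2.17.0. Alternatives were other scalings, no filter, DESeq2 1.42.0, edgeR's likelihood ratio test, no fold threshold, a replicate block and leaving out each library. Named genes are the 39 genes, Myc, Atf4, Ddit3 and genes of the other lists that passed; Lyz2, Ly6g, Calcr, Itgax, Tarsl2, Gm15564 and AA474408 were added after their values were seen. The 39 genes and the lists were chosen with earlier results of these data known. Some genes of the other lists are not reported here, and the counts of those lists leave them out.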

Additional observations from a re-analysis of the deposited data

How the results depend on the processing

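With RLE scaling the summed CPM of the mitochondrial enzymes without Lars2 gave a log2 ratio of -0.64 instead of -0.69, the only group value that moved by more than its replicate spread with all libraries kept. Over all genes, 1385 instead of 814 genes were called higher with no filter on low counts. Leaving out each library gave 199 to 1281 genes called lower and 65 to 1011 called higher over all genes, 1 to 14 cytosolic enzymes, 0 to 8 mitochondrial enzymes and 0 to 3 complex factors called lower. The median log2 fold changes then lay between -0.86 and -0.63 for cytosolic enzymes, between -0.71 and -0.59 for mitochondrial enzymes and between -1.19 and -0.82 for complex factors, and the log2 ratio of summed cytosolic CPM between -0.81 and -0.67, and the cytosolic value was the lower one in 7 to 10 of 16 pairs. A genotype then holds 1 library, which is assumed to vary like the pair of the other genotype. With no fold threshold Dars and Sars2 were also called lower, 29 in all, and Sars2 also with total counts alone.

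The replicate number names samples and marks no shared animal in the labels. Deviations of same-numbered libraries correlated at 0.499. With the replicate number as a block 27 of the 39 genes were called lower, the same genes, and over all genes 1774 lower and 1400 higher. With 2 libraries a genotype the spread is poorly known, and the lost calls without MYC-WT replicate 2 had adjusted p between 0.0557 and 0.235; the cause was not tested.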
